A study of Arabidopsis thaliana with 6 samples.

Results

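The 4 genes described here, PNP-A, PCC1, GRX480 and LLP1, are known to respond to salicylic acid, and their transcript levels were compared between wild-type Arabidopsis thaliana and the mutant sni1. They were chosen by the identifiers of their probe sets, the groups of short oligonucleotides by which the Affymetrix ATH1 array reads a transcript, and make up 4 of its 22746 probe sets that are not controls. Each group held 3 arrays of total RNA from whole plants at growth stage 3.90, grown on soil at 22 °C in a growth room after 3 days of cold treatment at 4 °C. The first group was the accession Col-0, labelled wild-type, and the second was sni1 in the Col-0 background, which the labels describe as a mutation induced by radiation in At4g18460. No treatment or infection is given for either genotype. Whether the 3 samples of a genotype were grown apart is not stated, so the p-values reflect only the spread between arrays, and this spread may be technical.

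Salicylic acid builds up in plants under attack by pathogens, is sensed by NPR proteins, and acts with TGA transcription factors on defence genes. SNI1 is known as a repressor of these genes in systemic acquired resistance, the lasting defence state of uninfected leaves after a local infection. PNP-A encodes a small secreted protein related to expansins that acts on ion and water balance. PCC1 (pathogen and circadian controlled 1) encodes a small membrane-associated protein whose transcript follows the clock as well as infection. GRX480, also called ROXY19, is a CC-type glutaredoxin that binds TGA factors. LLP1 is a protein with a legume-lectin-like domain that takes part in systemic acquired resistance.

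The loci lie on chromosome 2 (PNP-A, AT2G18660, probe set 266070_at), chromosome 3 (PCC1, AT3G22231, 256766_at), chromosome 1 (GRX480, AT1G28480, 261443_at) and chromosome 5 (LLP1, AT5G03350, 250942_at). The platform annotation supplied with the values names the gene of 2 of the 4 probe sets, those of GRX480 and AT5G03350. The links of the other 2 probe sets to PNP-A and PCC1, and the name LLP1 for AT5G03350, come from the rule that chose the members. All 4 probe sets passed the filter on low signal described with the methods, and for each of them the wild-type mean alone was above its value of 24.5.

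The values are MAS5 signals on a linear scale, which rank arrays for one probe set but not one gene against another. Fold changes are sni1 minus wild type on the log2 scale of signal plus 2.87, and a difference passed where its adjusted p over all tested probe sets was under 0.05. The labels' gene At4g18460 stood at 41.0, 40.04 and 37.2 on the wild-type arrays and 44.3, 32.5 and 28.2 in sni1 (log2 fold change -0.18, limma adjusted p = 0.906), and SNI1 itself (AT4G18470), which has no probe set in this annotation, is not analysed here. As a check of the tissue, RCA, the rubisco activase of green tissue, had mean signals of 4995 in wild type and 4606 in sni1, while the root genes EXPA7 and AT5G17820 lay under the filter on mean signal in both genotypes, with means of 2.02 to 15.3. These signals belong to different probe sets, so no share of green or root tissue follows from them. A probe set with a name existed for 1 of the 15 listed green-tissue markers, 2 of the 9 root markers and none of the 9 flower markers. Fewer cells that express a gene and less RNA per cell cannot be told apart in these samples.

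PNP-A was higher in sni1 on every array. Its signal was 24.8, 41.2 and 21.3 in wild-type replicates 1, 2 and 3 and 379, 492 and 331 in sni1 replicates 1, 2 and 3. The genotypes did not overlap, and the lowest sni1 array was 8.02 times the highest wild-type array. The mean rose from 29.1 ± 10.6 to 400.4 ± 82.8 (SD, n = 3 arrays each), and its log2 fold change was 3.69 (SE 0.26, adjusted p by limma = 0.00225). Among the 13648 tested probe sets this rise ranked 2 from the top. The ratio of sni1 to wild type was 15.3, 11.9 and 15.5 in the arrays numbered 1, 2 and 3, so the pairs of same-numbered arrays gave similar sizes.

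**Figure D1:**
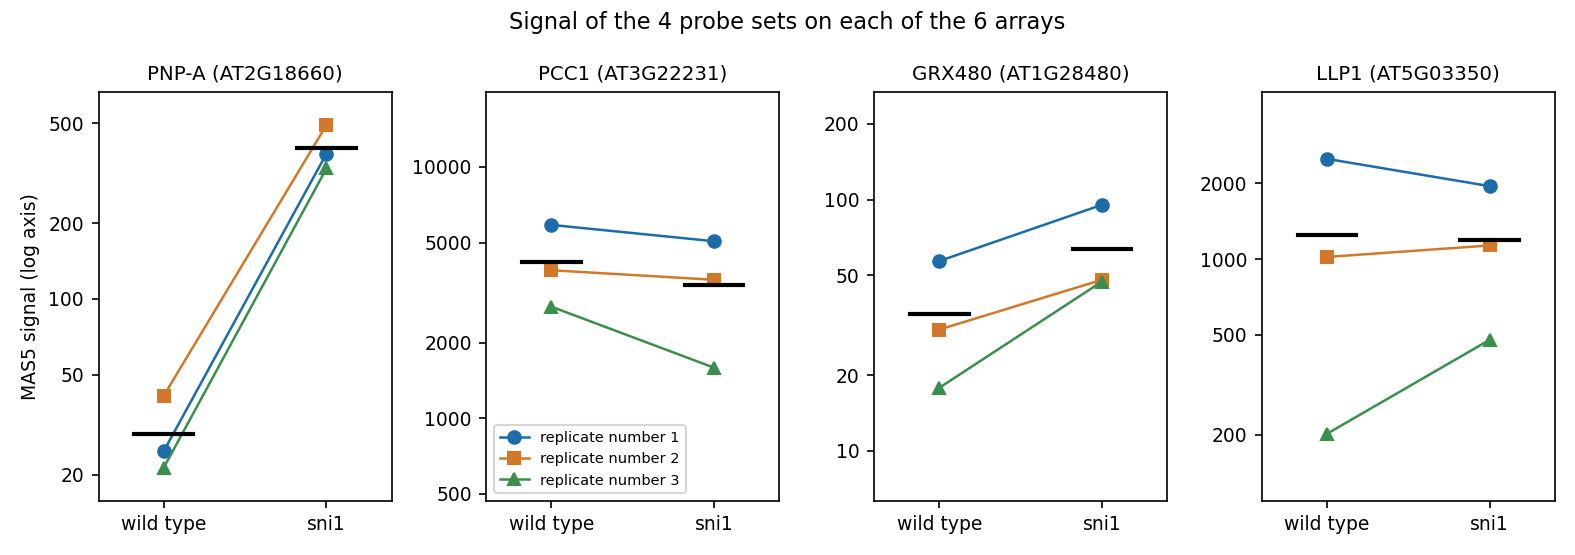
MAS5 signal of PNP-A, PCC1, GRX480 and LLP1 in wild type and sni1 (3 arrays each), on log axes that span the same ratio in each panel. Lines join arrays of the same replicate number and black bars are genotype means. The sni1 arrays of PNP-A (331 to 492) lie above its wild-type arrays (21.3 to 41.2), while the genotypes overlap for PCC1, GRX480 and LLP1.

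GRX480 had low signal in both genotypes. It stood at 57.0, 30.4 and 17.8 in wild-type replicates 1, 2 and 3 and at 95.3, 48.0 and 47.2 in sni1 replicates 1, 2 and 3. The genotypes overlapped, since wild-type replicate 1 exceeded sni1 replicates 2 and 3, but sni1 was higher within each replicate number, by 1.67, 1.58 and 2.65 times. All 3 pairs were higher in sni1 in 23.2% of tested probe sets. The means were 35.1 ± 20.0 and 63.5 ± 27.6 (SD, n = 3 each), with a log2 fold change of 0.87 ± 0.42 (SE). Same-numbered arrays of the genotypes deviated together, so each gene was also fitted with the replicate number as a block, a term that takes out what the arrays of a number share. Without the replicate number the difference of GRX480 did not pass the test (limma adjusted p = 0.665), and with the replicate number as a block GRX480 rose (log2 fold change 0.87 ± 0.18 SE, limma adjusted p = 0.0143). Without both arrays numbered 3 the blocked log2 fold change was 0.66 and missed the threshold (limma adjusted p = 0.0504). With a single array left out, and no block, it ranged from 0.50 without wild-type replicate 3 to 1.26 without wild-type replicate 1.

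PCC1 did not pass the test in either direction. It stood at 5880.3, 3882 and 2779 in wild-type replicates 1, 2 and 3 and at 5063, 3557 and 1589 in sni1 replicates 1, 2 and 3. The genotypes overlapped, and within each replicate number sni1 was the lower array, at 0.861, 0.916 and 0.572 of wild type. All 3 pairs were lower in sni1 in 23.4% of tested probe sets. The means were 4180.4 ± 1572 and 3403 ± 1742 (SD, n = 3 each), and the log2 fold change was -0.38 (SE 0.44, adjusted p by limma = 0.906, and 0.0868 with the replicate block). The 95% interval of the log2 fold change, not adjusted for the number of tests, ran from -1.40 to 0.64, and from -0.66 to -0.10 with the block. Without sni1 replicate 3, and with no block, the log2 fold change was 0.09, a fit that keeps wild-type replicate 3 without its pair. Without both arrays numbered 3, and with the block, it was -0.17 (limma adjusted p = 0.269).

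LLP1 differed more between replicate numbers than between genotypes. Its signal was 2505.5, 1020.0 and 202 in wild-type replicates 1, 2 and 3 and 1951.5, 1133 and 478 in sni1 replicates 1, 2 and 3. The genotypes overlapped and the pairs disagreed, with sni1 at 0.779 of wild type in number 1, at 1.11 times in number 2 and at 2.37 times in number 3. The means were 1242 ± 1168 and 1187.5 ± 738.5 (SD, n = 3 each). The log2 fold change was 0.34 (SE 0.87, adjusted p by limma = 0.967, and 0.38 with the block). Its sign is opposite to that of the difference of the linear means, wild-type replicate 1 being the highest array. The 95% interval, from -1.67 to 2.35 and with the block from -0.15 to 0.83, does not show that LLP1 was equal in the genotypes. Without wild-type replicate 3 the log2 fold change was -0.65 and without sni1 replicate 1 it was -0.13, both with no block. With the block it was -0.10 without replicate number 3, and 0.69 without replicate number 1, where it passed (limma adjusted p = 0.0156).

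**Figure D2:**
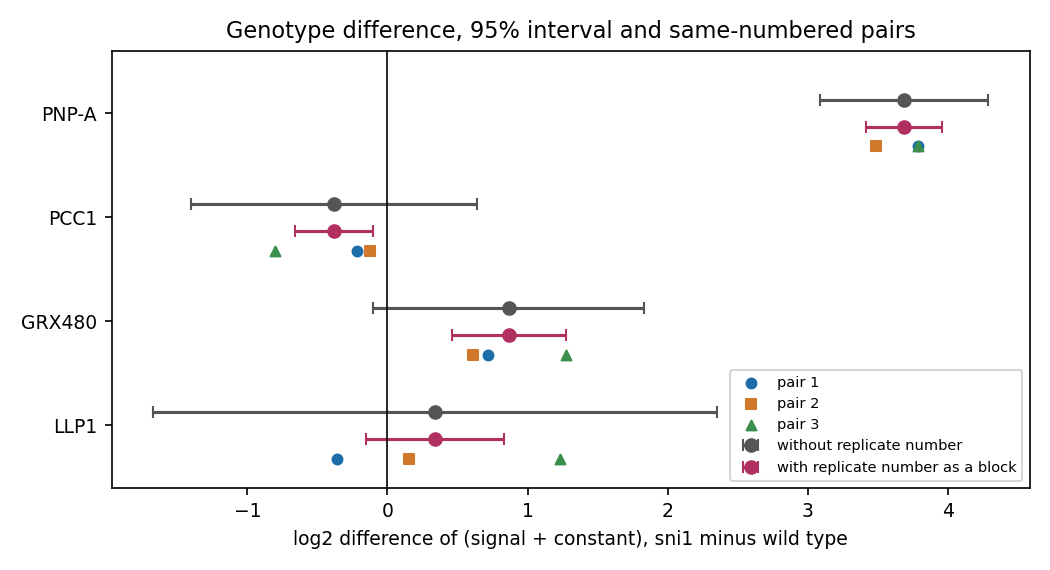
Log2 fold change of each gene (sni1 minus wild type, on the log2 scale of signal plus 2.87) with its 95% interval from limma without and with the replicate number as a block, and below them the differences of the 3 same-numbered pairs. PNP-A lies at 3.69 in both fits with pairs from 3.49 to 3.79, and the pairs of LLP1 run from -0.36 to 1.23, on both sides of 0.

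Of the 4 genes, 1 passed without the block, where 0.550% of all 13648 tested probe sets passed (0.520% with sni1 higher and 0.0293% with sni1 lower). With the block 2 of the 4 passed, both as higher, where 6.15% of tested probe sets passed as higher and 3.88% as lower. Groups that did not overlap were found for 1 of the 4 and for 14.4% of tested probe sets (7.73% with sni1 higher). The 4 genes were chosen with earlier results of these data known, so these counts beside the shares are a description and no test. The median log2 fold change of all tested probe sets was -0.0051.

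The sizes of the changes were compared by the difference of log2 signals within each array, with an exact permutation test over the 6 arrays. The smallest p that 3 arrays against 3 can give is 0.1, so no comparison could pass 0.05. The log2 fold change of PNP-A exceeded that of PCC1 by 4.07, that of LLP1 by 3.35 and that of GRX480 by 2.82, each with a two-sided exact permutation p of 0.1 (0.15 adjusted over the 6 pairs of genes). PCC1 lay below GRX480 by 1.25 (exact permutation p = 0.1, adjusted 0.15). The differences between PCC1 and LLP1 (-0.72) and between GRX480 and LLP1 (0.53) both had an exact permutation p of 0.5. The excess of PNP-A over each of the others was positive in all 3 same-numbered pairs, and its lowest value in a pair was 2.51, over GRX480 in number 3.

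PCC1, LLP1 and GRX480 shared their order of replicate numbers in both genotypes, with number 1 highest and number 3 lowest. The share of all tested probe sets with this order was not computed. Averaged over the genotypes, PCC1 stood at 5471.5 in number 1, 3719.5 in number 2 and 2184 in number 3, and LLP1 at 2229, 1077 and 339.7. GRX480 averaged 76.1, 39.2 and 32.5, its sni1 arrays numbered 2 and 3 lying close together (48.0 and 47.2). PNP-A, at 202, 267 and 176, was highest in number 2. A limma test of the replicate numbers with genotype in the model passed for all 4 genes, with adjusted p = 0.000207 for LLP1, 0.000471 for PCC1, 0.00523 for GRX480 and 0.0111 for PNP-A. It passed for 31.2% of tested probe sets.

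The range of the 3 replicate means on the log2 scale was 2.82 for LLP1, 1.38 for PCC1, 1.25 for GRX480 and 0.72 for PNP-A. A larger range than that of LLP1 was found in 0.183% of tested probe sets, and than that of PCC1, GRX480 and PNP-A in 3.14%, 4.39% and 21.5%. The median range over tested probe sets was 0.43. For PNP-A the log2 fold change between genotypes was thus larger than this range, and for LLP1, PCC1 and GRX480 it was smaller in size. The measures are unlike, since a range over 3 means of fewer arrays each tends to be larger than a difference of genotype means. The labels do not say what a replicate number stands for.

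**Figure D3:**
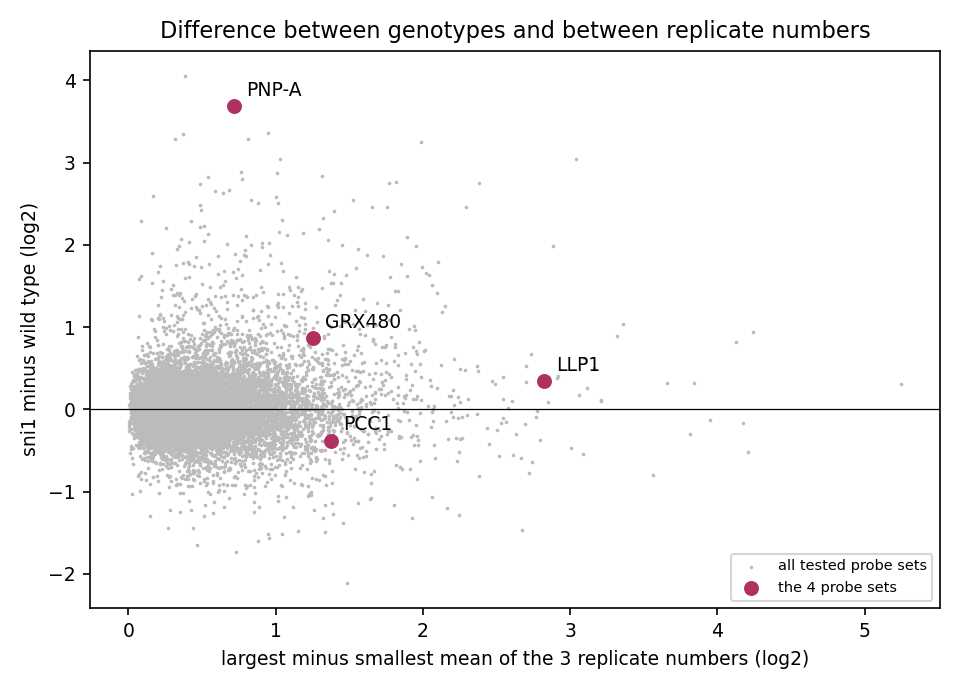
For each tested probe set (grey), the log2 fold change (sni1 minus wild type) against the range of the 3 replicate-number means on the log2 scale, with the 4 genes in red. PNP-A stands high at a range of 0.72, and LLP1 lies far to the right, at a range of 2.82 with a fold change of 0.34.

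Properties of the arrays also differed between replicate numbers. Arrays numbered 3 had the lowest medians in both genotypes (34.6 for wild type, 36.7 for sni1, against 39.2 to 40.8 on the others) and the lowest 10th percentiles (1.81 and 1.89, against 3.34 to 4.31). The 3' signal of a GAPDH control pair over its 5' signal, which reflects RNA integrity, was 1.12 and 1.17 on them and 1.503 to 1.752 on the others. The same ratio of an actin pair ran from 2.58 to 7.61 and was highest in number 1 in both genotypes (4.755 in wild type and 7.61 in sni1). Its lowest array was replicate 2 in wild type and replicate 3 in sni1. The part of RNA integrity in these differences was not tested. After quantile normalization, which gives all arrays one distribution, the test of the replicate numbers passed for LLP1 (limma adjusted p = 3.74e-05), PCC1 (1.08e-05), GRX480 (0.00386) and PNP-A (0.0167).

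Among 7352 other tested probe sets with a named gene, the 3 most like each of the 4 genes were taken by Pearson's correlation of log2 signals over the 6 arrays, which share genotype and replicate number. With so many candidates, high values of r arise at 6 arrays, and they are given as a description. The genes most like PNP-A were RING1, a RING-finger ubiquitin ligase (r = 0.997), AT3G13950 (0.994) and AT3G47480 (0.993). They were picked for following PNP-A on arrays that split by genotype, so their rise in sni1 is part of the choice and no separate result. RING1 stood at 251, 292 and 206 in wild-type replicates 1, 2 and 3 and at 783, 986 and 785 in sni1 (log2 fold change 1.76). AT3G13950 stood at 5.12, 7.21 and 2.26 on the wild-type arrays and at 52.1, 57.9 and 38.3 in sni1, and AT3G47480 at 13.06, 16.9 and 13 and at 107, 98.8 and 96.8. The wild-type signals of both lay under the filter value of 24.5, so these genes were tested only through their sni1 arrays, and the size of their difference is uncertain.

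Those most like PCC1 were AT3G27180 (r = 0.994), AT3G22240 (0.994) and AT5G64550 (0.992). AT3G22240 lies 2 protein-coding loci from PCC1 in the TAIR10.1 assembly, with AT3G22235 between them, which had no named probe set. It is also on the list of relatives of the members. AT3G22240 stood at 7323, 5890 and 5158 in wild-type replicates 1, 2 and 3 and at 6752, 5428 and 3529 in sni1. As for PCC1, the sni1 array was the lower of each pair, and the gene did not pass (log2 fold change -0.26, limma adjusted p = 0.9, and 0.155 with the block). Its replicate numbers differed (limma adjusted p = 0.00595). AT3G22240 was picked for following PCC1 on these arrays, so these likenesses are part of the choice. Whether probes of neighbouring or related genes share sequence was not checked.

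**Figure D4:**
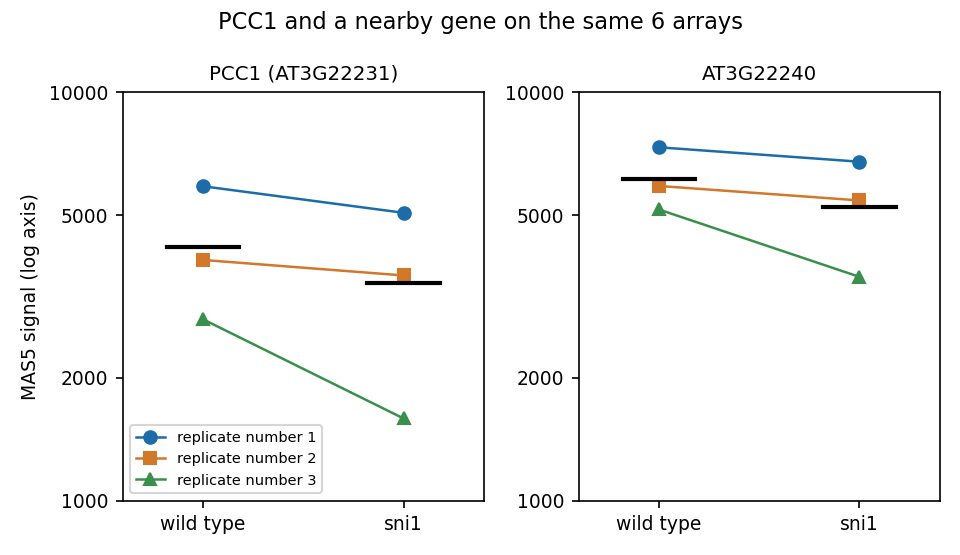
MAS5 signal (log axes) of PCC1 and AT3G22240 in wild type and sni1, with lines joining arrays of the same replicate number and black bars for genotype means. In both genes and both genotypes number 1 is highest and number 3 lowest, and each line falls from wild type to sni1.

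Those most like GRX480 were AT1G33590 (r = 0.993), AT2G41060 (0.985) and AT5G54860 (0.984). They were picked for following GRX480 on these arrays, so a rise in sni1 with the block is part of the choice and no separate result. AT1G33590, which encodes a leucine-rich repeat protein, stood at 660.1, 416 and 329 on the wild-type arrays and 952, 569.8 and 547.5 in sni1, and rose with the block (log2 fold change 0.57, limma adjusted p = 0.00455, and 0.716 without it). AT5G54860 also rose with the block (0.45, limma adjusted p = 0.0458, and 0.757 without it), and AT2G41060 did not pass (0.37, adjusted p = 0.209 with it). Those most like LLP1 were AT1G80290 (r = 0.998), AT3G07810 (0.993) and AT3G32900 (0.992), with log2 fold changes of 0.14, 0.05 and 0.21 and no call in either fit. The AT3G32900 probe set is of a type that may detect further transcripts.

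Of the 16 protein-coding loci within 2 places of the 4 genes, 7 had a probe set with a name, and the filter left 5 of them. None of these 5 passed in either limma fit, while 0.550% of tested probe sets did without the block, and 6.15% as higher and 3.88% as lower with it. At an unadjusted p under 0.05 there were 0 of the 5 without the block and 1 with it, against 8.49% and 25% of all tested probe sets. Next to PNP-A, AT2G18670 stood at -0.15 (log2 fold change). On the other side of PCC1, AT3G22230 and AT3G22220 stood at -0.18 and -0.15, and next to LLP1, AT5G03345 stood at -0.16. AGL59, near GRX480, and AT5G03360, near LLP1, lay under the filter.

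The 4 genes were set beside other genes of the salicylic acid pathway. Of 43 listed genes, a named probe set existed for 6, and 5 of these were tested, so most of the pathway is not described here. CHI, an annotated chitinase, passed without the block (log2 fold change 3.35, limma adjusted p = 0.00184), as PNP-A did. All 5 rose with the block, where 6.15% of tested probe sets passed as higher, and all 5 were higher in sni1 in each same-numbered pair, as were 23.2% of tested probe sets. The others were WRKY53, a transcription factor that acts in leaf senescence and defence (1.49, limma adjusted p = 0.00011 with the block), SAG101, a partner of EDS1 (1.10, 0.00496), AT5G55450, of the lipid-transfer protein type (1.04, 0.00686), and AT5G52810, an enzyme of pipecolic acid synthesis (0.68, 0.0197). Without the block the adjusted p of these other genes ran from 0.211 to 0.873. Without replicate number 2 AT5G52810 did not pass with the block (limma adjusted p = 0.15). The median log2 fold change of the 5 was 1.10, against 3.69 for PNP-A, 0.87 for GRX480, 0.34 for LLP1 and -0.38 for PCC1. UGT76B1, a glucosyltransferase that acts on salicylic acid, lay under the filter, with means of 1.94 and 10.7.

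AT5G52810, AT5G55450, WRKY53 and SAG101 were lowest in number 3 in both genotypes, as PNP-A, PCC1, GRX480 and LLP1 were. CHI was not, standing at 28.6, 28.7 and 27.2 in wild-type replicates 1, 2 and 3 and at 255.8, 426.9 and 280.2 in sni1, where number 1 was lowest. The arrays numbered 3 also had the lowest medians. The share of all tested probe sets that were lowest there was not computed, so this is a description and not a trait of the pathway. AT5G52810 stood at 146, 75.9 and 31.5 in wild-type replicates 1, 2 and 3 and at 183, 163 and 50.4 in sni1. Its replicate numbers differed (limma adjusted p = 0.000184), as did those of AT5G55450 (0.00169) and WRKY53 (0.00198). Those of CHI (0.24) and SAG101 (0.157) did not pass. Of the 5 tested genes of the pathway 3 thus differed between replicate numbers, where 31.2% of all tested probe sets did.

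GRX480 belongs to the CC-type glutaredoxins, a plant class of small redox proteins. Of the 20 other listed members 16 had a probe set with a name and the filter left 12. None passed in limma without the block, where 5 of the 12 (4 lower and 1 higher) had an unadjusted p under 0.05, against 8.49% of all tested probe sets. With the block 4 were lower and 1 was higher in sni1, against 3.88% and 6.15% of tested probe sets. The lower ones were AT2G47880 (log2 fold change -1.11, limma adjusted p = 0.00215 with the block), AT5G18600 (-0.71, 0.000668), AT3G62950 (-0.74, 0.00523) and AT2G30540 (-0.82, 0.0178). AT2G47880, AT5G18600, AT3G62950 and, below, AT4G33040 were named for their small unadjusted p without the block. AT2G30540 was named outside that rule, after its values were seen. AT5G18600 stood at 763, 1042 and 1232 in wild-type replicates 1, 2 and 3 and at 468, 640.4 and 748 in sni1, with no overlap of the genotypes.

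The higher one was AT4G33040 (0.58, limma adjusted p = 0.0471 with the block), at 55.1, 52.0 and 40.3 on the wild-type arrays and 99.9, 60.8 and 66.8 in sni1. It did not pass with the block after quantile normalization or without replicate number 1 (limma adjusted p = 0.21) or 3 (0.139). With the block, the 4 lower members were lower and passed after each of quantile normalization, cyclic loess and median centring, while without replicate number 2 or 3 AT2G30540 did not pass (limma adjusted p = 0.0917 and 0.0907). The median of the 12 was -0.16. With the block it was -0.19 without replicate number 1, 0.20 without number 2, where 11 were tested, and -0.58 without number 3, where 11 of the 12 values were negative. Members of the AT4G15660 to AT4G15700 group are close copies that their probe sets may not separate, and the 4 tested ranged from -0.17 to 0.19. Without replicate number 3 and with the block they ranged from -0.60 to -0.20, and AT4G15660 passed as lower (limma adjusted p = 0.0282), while without number 1 or 2 the 4 values were positive. A test of the difference between GRX480 and these members was not made.

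**Figure D5:**
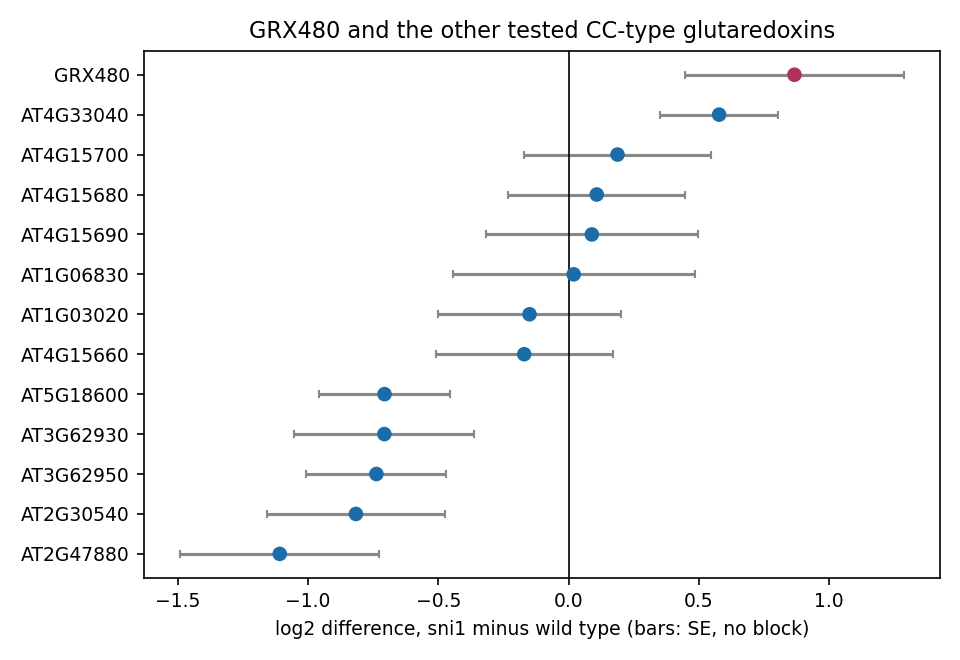
Log2 fold change (sni1 minus wild type) of GRX480 (red) and the 12 other tested CC-type glutaredoxins (blue), with SE from limma without the block. Values run from -1.11 for AT2G47880 to 0.87 for GRX480, which has the highest value among them.

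Relatives of the other genes were few, and AT3G22240, also listed as one, is described above. AT3G16530, like LLP1 a legume-lectin gene, stood at 193, 247 and 230.1 in wild-type replicates 1, 2 and 3 and at 574, 727.5 and 347 in sni1, with no overlap of the genotypes. It rose with the block (log2 fold change 1.23, limma adjusted p = 0.00133) and did not pass without it (0.165), where LLP1 passed in neither fit. AT4G30380, the relative of PNP-A, lay under the filter, with 1.15 to 2.68 in wild type and 14.6, 0.77 and 0.357 in sni1. The list of TGA factors, partners of GRX480, had no named probe set.

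Forced expression of GRX480 is known to repress PDF1.2, a defensin gene of the jasmonate and ethylene pathway. In the same arrays PDF1.2 and PDF1.2b had log2 fold changes of 1.98 and 3.25 (limma adjusted p = 0.0854 and 0.199, and 0.00289 and 0.00138 with the block), the second from a probe set that may detect further transcripts. GRX480 and both defensin genes passed as higher in sni1 with the block, and none of them passed without it. Whether GRX480 acts on the defensin genes in these plants was not tested. THI2.1, the other gene of that list with a named probe set, lay under the filter with a mean of 17.6 in both genotypes.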

How the data were processed

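Total RNA of 3 wild-type and 3 sni1 samples was measured on ATH1 arrays. The deposited values are signal intensities, 1 for each probe set of an array, computed by the authors with MAS5, per the submitters' processing notes (settings not stated). With 2% trimmed from either end, every array averaged 100.01, which shows that they had been scaled. The number of arrays limits the precision.

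Control probe sets (64) were left out. Signals were analysed as log2(value + 2.87), where 2.87 is the 10th percentile of the table. The added constant makes the fold change of a dim probe set too small. A filter kept the 13648 probe sets whose mean was at least 24.5, the 40th percentile of means. The genotypes were compared in limma 3.58.1 (lmFit, then eBayes with trend; R 4.3.3) by a two-sided test, adjusted by Benjamini-Hochberg over all 13648 at 0.05. Names came from the platform annotation and TAIR10.1: 13436 of 22746 probe sets matched 1 locus, 503 listed several genes and 8730 had no entry. Where probe sets shared a locus, list members were read from the brightest. Figures used matplotlib 3.10.9 in Python 3.11.15, and the procedure was tested on simulated data.

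The titles number the replicates of each genotype from 1 to 3. Deviations from the genotype mean correlated across probe sets between arrays of the same number (0.66, 0.58 and 0.71, all above 0.1), so the numbers were taken to pair the arrays, from the data and not from the labels. The main fit has no block, and the blocked fit is given where it bears on a call. The exact permutation test had 20 arrangements.

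Named genes are the 4 members, the 3 most like each, the tested members of 10 lists (130 entries; of lists with over 6 tested genes, the 4 with the smallest unadjusted p) and loci within 2 places of a member. Members and lists were chosen with earlier results of these data known. Alternatives covered the constant, filter, scaling, trend, array weights, block and arrays left out. The block combined with cyclic loess or another constant, and all alternatives for the tests between members and between replicate numbers, were added after seeing the data.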

Additional observations from a re-analysis of the deposited data

How the results depend on the processing

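PNP-A was higher in sni1 and passed under all 22 alternatives, with log2 fold changes from 3.33 to 3.94 (limma adjusted p up to 0.0246). With the replicate block the number of probe sets past the threshold went from 75 (71 higher and 4 lower) to 1369 (839 and 530), and GRX480 passed at an unchanged log2 fold change of 0.87. The block changed no other member's call. With the block and quantile normalization, cyclic loess, the constant at the 25th percentile or no constant, 1442, 1392, 1409 and 1326 probe sets passed, and GRX480 passed at 0.83, 0.87, 0.71 and 0.93. With the block and without replicate number 1, 2 or 3, 1138, 799 and 994 passed. In these fits GRX480 stood at 0.94 and 0.99 and passed without number 1 or 2, and it stood at 0.66 and missed the threshold without number 3, while LLP1 passed at 0.69 without number 1 and stood at -0.10 without number 3. Array weights gave 137 calls. With 1 array left out and no block, the calls ran from 5 (without sni1 replicate 1 or 2) to 75, with 37 and 42 without wild-type replicate 1 and 2. The log2 fold change of PNP-A then ran from 3.51 to 3.94, of GRX480 from 0.50 to 1.26, of PCC1 from -0.75 to 0.089 and of LLP1 from -0.65 (and -0.13 without sni1 replicate 1) to 1.16. These fits keep an array without its pair, so differences between replicate numbers enter them. The difference between PCC1 and LLP1 ran from -1.26 to 0.0058, its sign turning without wild-type replicate 3. The cause of these shifts was not tested. The tests of the replicate numbers passed for all 4 genes under the 4 alternatives tried. Signals of GRX480 and wild-type PNP-A are low, where the added constant weighs most.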
